A study of Mus musculus with 2 samples.

Results

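The RNA of 9 genes that mark basophils and mast cells was followed in mouse granulocyte-monocyte progenitors (GMP), the bone marrow cells that give rise mainly to neutrophils and monocytes. The genes are Hdc, Cpa3, Mcpt8, Prss34, Ms4a2, Fcer1a, Il1rl1, Cma1 and Tpsb2. They were taken by name as products known from basophils and mast cells, though with earlier results of these data known. They are 9 of 43346 annotated genes in the deposited tables. All 9 were found there.

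The study measured total RNA after removal of ribosomal RNA, from 100 ng per library with the ScriptSeq kit. There is 1 group of 2 libraries, called replicate 1 and replicate 2, both from unmodified male C57BL/6J mice aged 5 to 6 weeks, with no treatment and no other cell type. The labels number the libraries as separate biological replicates and trace both to the same donor record, so the spread between them may be technical in part. With 1 group no test between conditions could be made. The values below are therefore levels, orders within each library and differences between the libraries.

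Basophils and mast cells are rare granulocytes that bind immunoglobulin E (IgE) through the high-affinity receptor FcεRI and release histamine, proteases, lipid mediators and cytokines when the receptor is crosslinked. Their committed progenitors arise close to the granulocyte-monocyte branch, and in bone marrow some fall inside the surface gates used to sort it. Mouse basophils store the proteases Mcpt8 and Prss34, whereas tissue mast cells store tryptases such as Tpsb2 and chymases such as Cma1. Cpa3, Hdc and the receptor chains are shared by both lineages.

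The libraries held 49473848 and 44260902 expected counts. The label was checked against markers: all 4 primary granule genes (Mpo, Elane, Prtn3, Ctsg) and all 3 genes of surface proteins used to select these cells (Cd34, Fcgr3, Kit) were above 10 TPM in both libraries, while 0 of 6 genes of excluded surface markers reached 1 TPM. The nearest was Ly6g, a neutrophil marker, at 0.97 and 0.76 TPM. TPM is a transcript level that scales counts by transcript length and sums to the same total in each library. Genes coding for nuclear-encoded proteins took 19.1% and 22.8% of all TPM, so a TPM of 1 here stands for more RNA relative to other mRNAs than the same figure would in a library of mRNA alone. Where this matters, TPM rescaled over those genes alone is given too. On that scale Ly6g was at 5.09 and 3.33, and 1 of the 6 excluded markers reached 1.

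The 9 genes ranged from the histamine enzyme Hdc, above 95.2% and 94.6% of protein-coding genes, to the tryptase Tpsb2, with no read. Hdc and Cpa3 were above 10 TPM in both libraries. Mcpt8, Ms4a2 and Prss34 lay between 4 and 13 TPM, Fcer1a and Il1rl1 near or below 1 TPM, and Cma1 and Tpsb2 at or near 0. Of the 9 genes, 5 were at 1 TPM or more in both libraries, beside 40.8% of 21461 nuclear protein-coding genes and 22.0% of all annotated genes. At 10 TPM the count was 2 of 9 genes, beside 14.3% of protein-coding genes. On rescaled TPM 7 of 9 genes reached 1, beside 47.8%. With 9 genes these shares are near the background, and nothing is read from them.

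**Figure D1:**
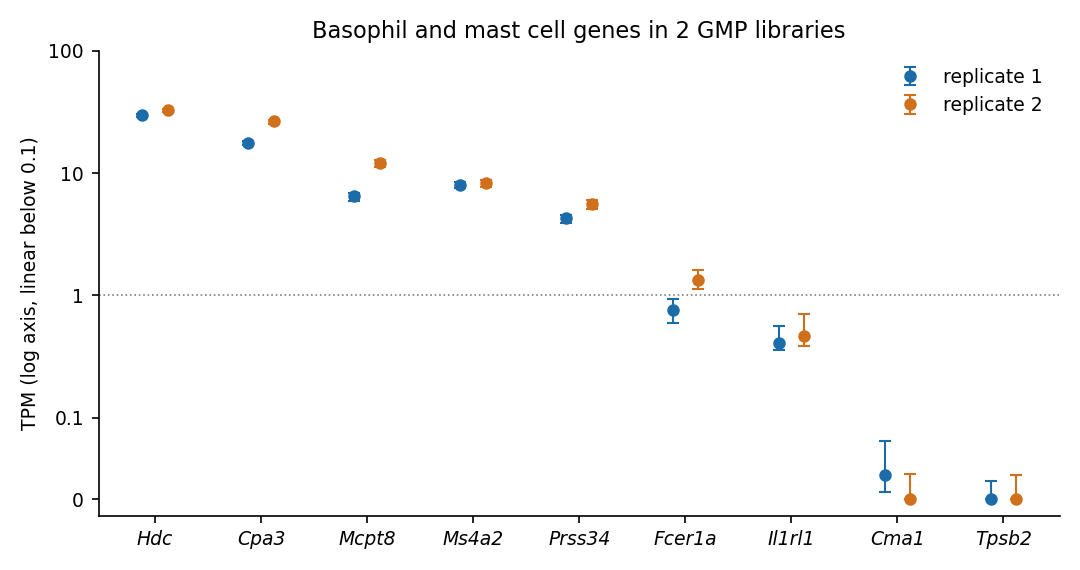
TPM of the 9 genes in each library on an axis that is logarithmic above 0.1 and linear below it, 1 point per library; bars are the deposited credibility intervals. Hdc and Cpa3 stand highest, and Tpsb2 is at 0 in both libraries.

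The median of log2(TPM + 1) over the 9 genes was 2.40 in replicate 1 and 2.72 in replicate 2. Over all nuclear protein-coding genes it was 0.23 and 0.26. In bulk RNA fewer cells of a type and less RNA per cell cannot be told apart, so none of the levels says how many cells carried these transcripts.

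Hdc encodes histidine decarboxylase, the enzyme that makes histamine, and is also known from immature cells of the neutrophil lineage. The gene (ENSMUSG00000027360.5) lies at chr2:126593667-126619299 on the minus strand of mm10. Replicate 1 gave 29.9 TPM and replicate 2 gave 32.6, a mean of 31.2 ± 1.92 (SD, n = 2). These rested on 8968 and 7871 counts. It was the highest of the 9 genes in both libraries and stood at rank 1027 and rank 1152 of the protein-coding genes. Hdc alone gave 57.5% and 52.9% of the counts of the 9 genes together.

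The full-length coding transcript Hdc-201 (662 codons) carried 91.1% and 96.7% of the gene's TPM. A short non-coding transcript that starts upstream, Hdc-205 (354 nt), carried 7.35% and 2.10%. The retained-intron model Hdc-204 received 222 and 191 counts.

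The other genes of histamine handling were lower. Slc18a2, the transporter that loads histamine into granules, was at 0.66 and 0.75 TPM, so the TPM of Hdc was 45.2 times and 43.4 times that of the transporter. Hnmt, which inactivates histamine by methylation, was at 11.4 and 18.1 TPM. The receptors Hrh1 and Hrh4 had 0 counts in both libraries, and Hrh2 was at 0.31 and 0.59 TPM.

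Lipid mediator genes completed a list of 12, of which 5 were at 1 TPM or more in both libraries, beside 40.8% of protein-coding genes. Alox5ap, which presents arachidonic acid to 5-lipoxygenase, stood at 53.4 and 57.4 TPM and Ptgs1, a cyclooxygenase, at 12.4 and 11.8 TPM. Alox5 itself was at 3.07 and 1.48 TPM. The last enzymes of the mast cell products were low: Ltc4s, for leukotriene C4, had 0 and 2 counts, and Hpgds, for prostaglandin D2, had 1 and 33 counts.

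Cpa3 encodes carboxypeptidase A3, a granule exopeptidase of mast cells that basophils and their progenitors also make. It lies at chr3:20215620-20242181 on the minus strand (ENSMUSG00000001865.2). Replicate 1 gave 17.6 TPM and replicate 2 gave 26.5, on 3228 and 3654 counts. Every count fell on the coding transcript of 417 codons. The gene was higher in replicate 2, and its deposited credibility intervals, 16.9 to 18.1 and 25.4 to 27.2 TPM, did not overlap. Such intervals concern each library alone and not the spread between libraries. On rescaled TPM Cpa3 was at 92.4 and 115.8.

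Mcpt8 and Prss34 encode the serine proteases of mouse basophil granules. Mcpt8 (ENSMUSG00000022157.7, chr14:56082166-56085273, minus strand) reached 6.46 TPM in the first library and 12.1 TPM in the second, on 631 and 869 counts. Prss34 (ENSMUSG00000056399.1, chr17:25298394-25300165, plus strand) stood at 4.27 and 5.61 TPM, a mean of 4.94 ± 0.948 (SD, n = 2), on 639 and 629 counts. Mcpt8 was the higher of the pair in both libraries, by 1.51 times and 2.16 times in TPM. For Mcpt8 the intervals within each library, 5.89 to 6.89 and 11.2 to 12.8 TPM, did not overlap. On rescaled TPM it was at 33.9 and 53.1.

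The mast cell proteases of the same families were at or near 0. Cma1, a chymase (ENSMUSG00000022225.6, chr14:55941451-55944675, minus strand), had 4 counts in replicate 1, or 0.03 TPM, and 0 in replicate 2, where 3 counts would have been 0.0312 TPM. Tpsb2, a tryptase (ENSMUSG00000033825.9, chr17:25366305-25369098, plus strand), had 0 counts in both, where 3 counts would have been 0.0230 and 0.0309 TPM. The chymase Mcpt4 and the tryptases Tpsab1 and Tpsg1 also had 0 counts in both libraries, as did 40.2% of protein-coding genes.

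Against that floor of 3 counts per library, the TPM of Prss34 was 185 times and 181 times the floor of Tpsb2 in the 2 libraries. For Mcpt8 the values were 281 times and 392 times. They divide the deposited TPM by that floor, without counting error, and are not lower bounds. On log2(TPM + 1), the median of Mcpt8 and Prss34 exceeded that of Cma1, Tpsb2, Tpsab1 and Mcpt4 by 2.93 ± 0.40 (SD, n = 2). As the second median is 0 TPM, the pseudocount sets that size, which was 6.06 with a pseudocount of 0.1 and 5.03 on rescaled TPM.

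Because these proteases belong to related families, the stretch around the catalytic serine is printed for the detected and undetected members, read from the GENCODE M21 coding sequences. Capitals mark the codon of that serine with 1 codon before it and 3 after it.
Mcpt8: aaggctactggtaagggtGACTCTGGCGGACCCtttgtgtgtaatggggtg
Cma1: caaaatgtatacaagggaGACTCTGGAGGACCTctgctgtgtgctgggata
Prss34: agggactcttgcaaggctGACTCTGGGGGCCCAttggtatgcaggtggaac
Tpsb2: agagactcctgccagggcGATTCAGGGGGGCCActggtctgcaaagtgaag
The coding sequences of Mcpt8 and Cma1 were identical at 57.9% of 727 aligned bases, and those of Prss34 and Tpsb2 at 63.2% of 817. None of the 50-base stretches of Mcpt8, Prss34 or Tpsb2 transcripts occurred in a transcript of another gene. In Cma1 56 of 1025 did, all of them in Gm48934. The counts of all 9 genes were whole numbers to the 2 decimals deposited, so no sharing of reads with another gene is seen in them. Whole numbers cannot show whether a read of another gene was assigned wholly to one of the 9. The counts also rest on GENCODE M4, not on M21.

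The difference between detected and undetected proteases was seen between neighbours on the chromosome. Within 250 kb of Mcpt8 lay 19 other protein-coding genes, most of them proteases of the chymase and granzyme cluster. Of these, 13 had no count in either library and 2 reached 1 TPM in each. Over all protein-coding genes these shares were 40.2% and 40.8%. Ctsg, the neutrophil protease cathepsin G, starts 17.3 kb from Mcpt8 and stood at 1046 and 1069 TPM, or 162 times and 88.2 times Mcpt8. Cma1 starts 141 kb from Mcpt8 on the other side.

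Around Prss34, 10 of the 19 neighbours considered had 0 counts in both libraries, beside 40.2% of protein-coding genes. Among them were Prss28, Prss29, Tpsab1, Tpsg1 and Tpsb2, whose start lies 67.9 kb away. Of the 15 granule protease and matrix genes listed, 4 reached 1 TPM in each library and 8 had no count in either. Over all protein-coding genes these shares were 40.8% and 40.2%. Besides Cpa3, Mcpt8 and Prss34, the fourth to reach it was Srgn, the granule proteoglycan core serglycin of many blood cells, at 449 and 698 TPM.

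**Figure D2:**
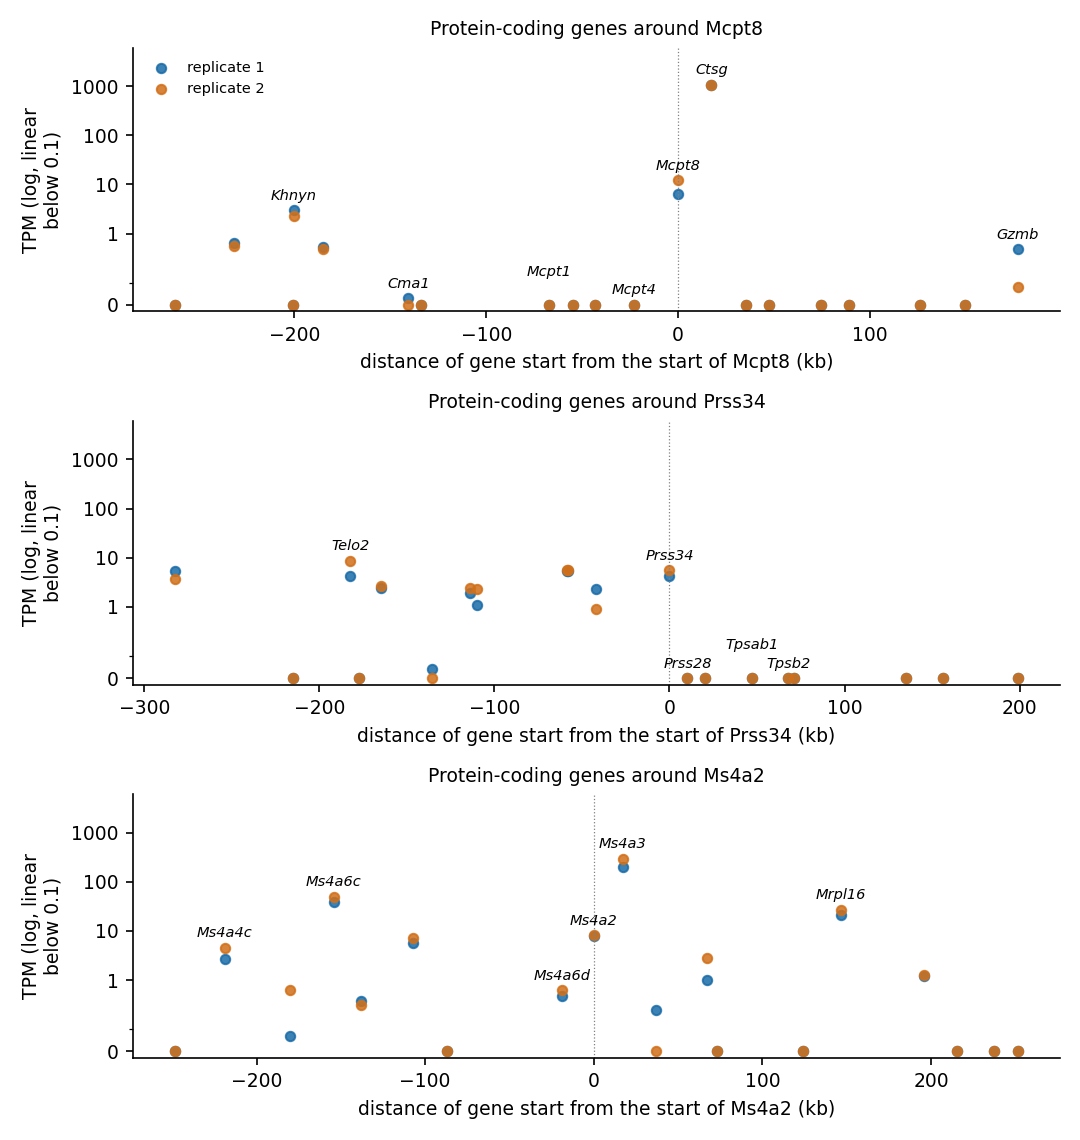
TPM of protein-coding genes around Mcpt8, Prss34 and Ms4a2 against the distance between gene starts in kb, 1 point per gene and library on an axis that is logarithmic above 0.1. Ctsg beside Mcpt8 and Ms4a3 beside Ms4a2 stand highest, while Tpsb2, Tpsab1 and Mcpt4 are at 0.

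FcεRI consists of an IgE-binding α chain (Fcer1a), a signal-amplifying β chain (Ms4a2) and the γ chain (Fcer1g), which other Fc receptors share. Ms4a2 (ENSMUSG00000024680.8, chr19:11615523-11623719, minus strand) was nearly level, with 8.01 TPM in replicate 1 against 8.24 in replicate 2, on 1844 and 1560 counts. Fcer1a (ENSMUSG00000005339.6, chr1:173221284-173227214, minus strand) stood at 0.76 and 1.33 TPM, a mean of 1.04 ± 0.403 (SD, n = 2), on 82 and 117 counts. Fcer1g stood at 28.1 and 40.2 TPM.

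The chains were therefore unequal in the same order in both libraries. In TPM Ms4a2 was 10.5 times and 6.20 times Fcer1a, and Fcer1g was 3.51 times and 4.87 times Ms4a2. The signalling genes downstream of the receptor ranged from Lat to Ptpn6, a phosphatase at 72.4 and 76.4 TPM, and most serve other receptors of blood cells as well. Of 17 genes of the receptor and its signal path, 15 were at 1 TPM or more in both libraries, beside 40.8% of protein-coding genes. Syk, the kinase recruited by the γ chain, stood at 13.9 and 15.1 TPM, and Lyn, the kinase that starts the signal, at 9.36 and 15.5 TPM. The adaptor Lat was at 0.14 and 0.63 TPM, and the related adaptor Lat2 at 6.56 and 8.45 TPM.

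The reads of Ms4a2 were assigned mainly to 2 transcripts. Ms4a2-204, whose 3′ end lies furthest downstream and whose annotated coding sequence has 125 codons, carried 55.4% and 66.2% of the gene's TPM. Ms4a2-202, which encodes 235 codons, carried 44.6% and 22.1%. The order was the same in both libraries, but the share of Ms4a2-202 differed. Of the 50-base stretches of Ms4a2-204, 63 of 2342 also occur in Ms4a4b. For Fcer1a the transcript of 250 codons carried 58.6% and 100% of the gene's TPM, on 52.6 and 117 counts.

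Ms4a2 lies in a cluster of related membrane genes. Of its 18 protein-coding neighbours within 250 kb, 7 reached 1 TPM in each library and 7 had no count in either. Over all protein-coding genes these shares were 40.8% and 40.2%. Ms4a3, a gene known from granulocyte-monocyte progenitors, starts 17.1 kb away and stood at 199 and 294 TPM. Around Fcer1a, 7 of 10 neighbours had 0 counts in both libraries, beside 40.2% of protein-coding genes. Olfactory receptor genes were among these 7. Aim2, a cytosolic DNA sensor, was the 1 neighbour at 1 TPM or more, at 15.9 and 21.4 TPM, beside 40.8% of protein-coding genes.

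**Figure D3:**
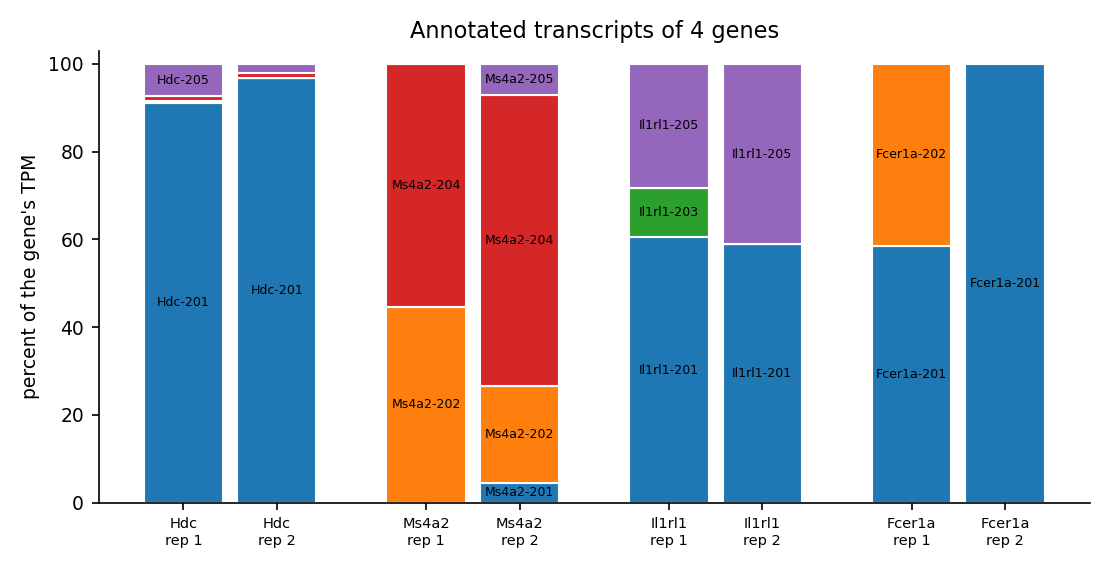
Share of each gene's TPM carried by each annotated transcript, in percent, for genes with more than 1 transcript that received counts, 1 stacked bar per gene and library, each block 1 transcript. Hdc-201 carries 91.1% and 96.7%, while Ms4a2 and Il1rl1 are divided between transcripts.

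Il1rl1 encodes ST2, the receptor chain for interleukin 33 on mast cells, basophils and some lymphocytes. The gene (ENSMUSG00000026069.11) lies at chr1:40429570-40465415 on the plus strand. Its level was 0.41 and 0.47 TPM in replicates 1 and 2, a mean of 0.44 ± 0.0424 (SD, n = 2), on 208 and 171 counts. Il1rap, the chain that ST2 shares with the interleukin 1 receptor, stood at 3.71 and 4.79 TPM, or 9.05 times and 10.2 times Il1rl1.

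ST2 is made as a membrane receptor and as a short secreted form that lacks the membrane anchor. The reading frames are the same for the first 985 coding bases and then part. The ends of the shared stretch are printed from the GENCODE M21 transcripts, with capitals for the bases that are not shared.
Il1rl1, membrane form: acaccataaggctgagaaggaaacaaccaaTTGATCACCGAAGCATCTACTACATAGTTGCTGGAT
Il1rl1, short form: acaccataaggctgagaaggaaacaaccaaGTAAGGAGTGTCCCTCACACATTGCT
The short form continues for 26 coding bases to its stop codon (337 codons in all), whereas the membrane form continues for 716 (567 codons). The annotated transcript of the membrane form carried 60.5% and 58.9% of the gene's TPM, on 174 and 149 counts. A transcript of the short form that begins at the distal start of the gene carried 28.3% and 41.1% on 17.4 and 21.6 counts. Another short-form transcript carried 11.2% in replicate 1 and 0% in replicate 2. Counts this low leave the division between the forms imprecise.

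Other receptors that guide this branch lay both above and below Il1rl1. Of 12 listed, 7 were at 1 TPM or more in both libraries, beside 40.8% of protein-coding genes. Kit, the stem cell factor receptor on which mast cells depend, stood at 20.4 and 23.8 TPM. Il3ra, the interleukin 3 receptor chain, stood at 3.54 and 3.73 TPM, its partner Csf2rb at 7.42 and 7.14 TPM, and Crlf2, which binds the basophil-acting cytokine TSLP, at 4.56 and 4.10 TPM. Il5ra, the eosinophil receptor chain, had 0 and 57 counts, and Il9r had 1 and 0.

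The order of the 9 levels in TPM was Hdc, Cpa3, Mcpt8, Ms4a2, Prss34, Fcer1a, Il1rl1, Cma1, Tpsb2. Neighbours in that order were the same way round in both libraries and further apart than either SD, except for 2 pairs. Ms4a2 was above Mcpt8 in replicate 1 and below it in replicate 2, and Cma1 and Tpsb2 did not differ beyond their spread. Hdc and Cpa3 together held 70.4% and 68.0% of the TPM of the 9 genes, and the 9 genes together 0.0354% and 0.0380% of that of nuclear protein-coding genes. For scale, the TPM of Mpo, the myeloperoxidase of primary granules, was 85.5 times and 70.2 times that of Hdc, and 145 times and 86.5 times that of Cpa3.

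Differences between the libraries were compared on counts, scaled by edgeR's trimmed mean of M values, as the ratio of replicate 2 to replicate 1. The intervals are 95% and cover counting error only. Fcer1a was 1.55 times as high in replicate 2 (1.16 to 2.08), Mcpt8 1.49 times (1.35 to 1.66) and Cpa3 1.23 times (1.17 to 1.29). Prss34 was at 1.07 (0.955 to 1.19). Hdc was at 0.952 (0.923 to 0.981), Ms4a2 at 0.917 (0.857 to 0.982) and Il1rl1 at 0.891 (0.724 to 1.10). For Prss34 and Il1rl1 the interval includes 1. By scaled counts the genes therefore differed in both directions, and the 2 chains of the same receptor, Fcer1a and Ms4a2, lay on opposite sides of 1. In TPM, however, Hdc, Ms4a2 and Il1rl1 were slightly higher in replicate 2. On rescaled TPM these genes were lower there, so their direction depends on the measure.

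**Figure D4:**
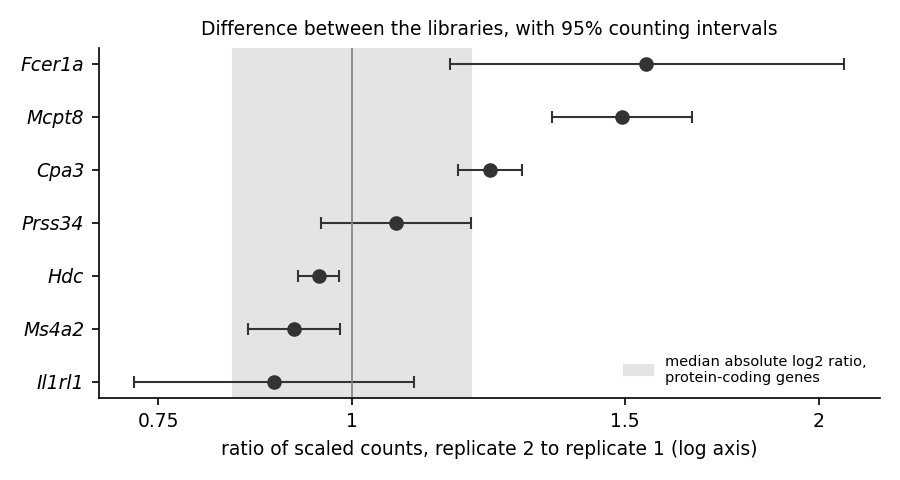
Ratio of scaled counts in replicate 2 to replicate 1, on a logarithmic axis, for the 7 genes with 10 or more counts in a library, with 95% counting intervals. The grey band is the median absolute log2 ratio of protein-coding genes, and Fcer1a, Mcpt8 and Cpa3 lie to its right.

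Of 7 genes with 10 or more counts in a library, 2 (Mcpt8 and Fcer1a) had a log2 ratio beyond 0.5 in either direction, beside 27.7% of 12190 protein-coding genes held to the same count. Both were higher in replicate 2, beside 13.8% of those genes. None was beyond a log2 ratio of 1, beside 14.4%. The median absolute log2 ratio of those 12190 genes was 0.25, without regard to direction. The signed median log2 ratio of the 8 basophil and mast cell genes with any count was 0.01, and 0.09 without Cma1, beside 0.003 over those 12190 genes. These shares are near the background, and nothing particular to the 9 genes is read from them.

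The ratio also moved with base composition over all genes: its median on the log2 scale fell from 0.16 in the quintile of genes poorest in G and C to -0.17 in the richest. With the median of its own quintile subtracted, Mcpt8 was at 0.60, Fcer1a at 0.45, Prss34 at 0.20 and Cpa3 at 0.13 on the log2 scale. Ms4a2 was then at -0.29 and Il1rl1 at -0.33. Hdc turned from -0.07 to 0.03, so its direction between the libraries depends on that correction. The labels give size ranges of 200-712 for replicate 1 and 200-1000 for replicate 2. The part of composition and size in each ratio was not tested.

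Markers of other cells were summed in each library. The 3 basophil markers were Mcpt8, Prss34 and Cd200r3, the last known from mast cells too. They summed to 11.04 TPM in the first library and to 18.2 in the second. Of the 3, 2 were at 1 TPM or more in both, beside 40.8% of protein-coding genes. The 5 mast cell markers summed to 0.03 and 0 TPM, with 4 of 5 at 0 counts in both. That set leaves out Kit, Mitf and Itgb7, which had reads here. Cpa3, Hdc and Ms4a2, which both lineages share, are in neither the mast cell nor the basophil set. Cpa3 alone stood at 17.6 and 26.5 TPM. The basophil set leaves out the surface markers Itga2, at 0.02 and 0.06 TPM, and Enpp3, at 0 counts. The sums therefore depend on the markers chosen. Eosinophil markers summed to 29.0 and 30.5 TPM with 4 of 7 at 1 TPM or more. Erythroid and megakaryocyte markers summed to 4.62 and 8.34 TPM with 2 of 7, which were Itga2b, a platelet integrin chain, at 2.91 and 3.38 TPM and Car1, a carbonic anhydrase of erythroid progenitors, at 1.07 and 3.33 TPM. In TPM the basophil, eosinophil and erythroid sums were all higher in replicate 2. As a share of the TPM of nuclear protein-coding genes, the basophil sum was 0.00579% and 0.00796%. The erythroid sum was 0.00242% and 0.00365% on that scale, and the eosinophil sum, lower in replicate 2, was 0.0152% and 0.0134%. The basophil sum contains Mcpt8 itself, at 6.46 and 12.12 TPM, while Cd200r3 had 46 and 41 counts. That sum is therefore not separate from the ratio of Mcpt8. The part of other cells in the ratios of Mcpt8, Cpa3 and Fcer1a was not tested.

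The eosinophil granule genes are the nearest list of another rare granulocyte. Of 6, 3 were at 1 TPM or more in both libraries, beside 40.8% of protein-coding genes. Prg2, the major basic protein, led them at 19.1 and 17.3 TPM. The 9 basophil and mast cell genes had a median log2(TPM + 1) that exceeded that of the eosinophil granule genes by 1.32 ± 0.21 (SD, n = 2). Taken as means in place of medians the difference was 0.55. By scaled counts 5 of the 6 eosinophil genes were lower in replicate 2. Of the 8 basophil and mast cell genes with a count, 4 were lower, among them Cma1 on 4 and 0 counts. The median log2 ratio of 12190 protein-coding genes was 0.003, and nothing is read from counts of so few genes.

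**Figure D5:**
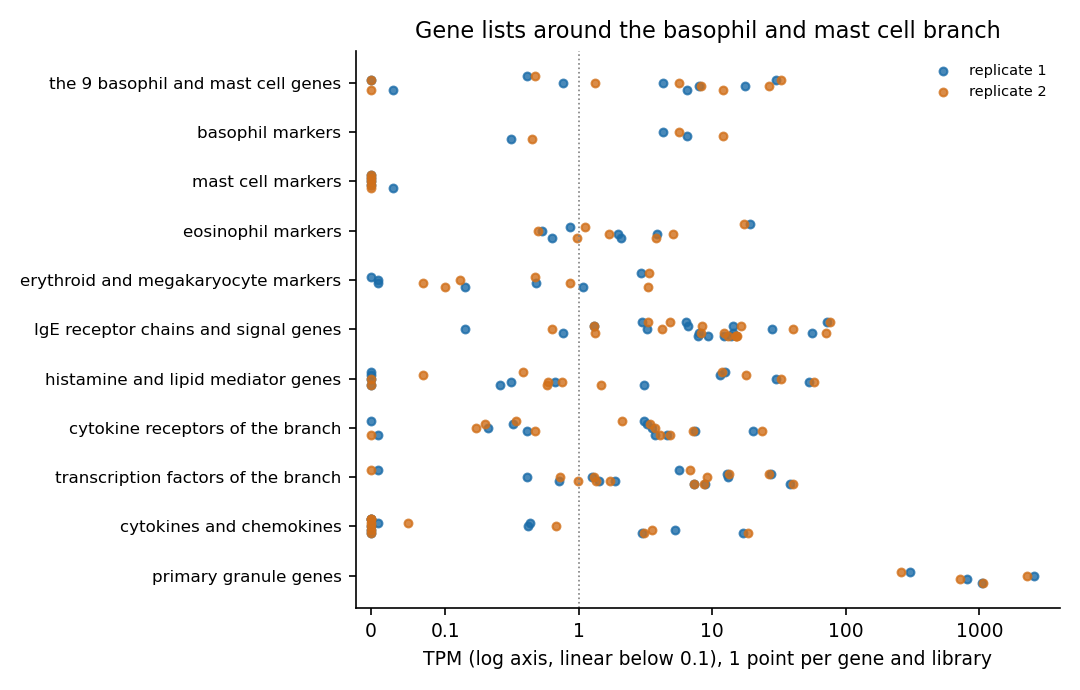
TPM of every gene in the lists on the vertical axis, 1 point per gene and library. The TPM axis is logarithmic above 0.1 and linear below it, and the dotted line marks 1 TPM. Some lists of the text, such as granule proteases and matrix and the surface markers, are not shown. The 5 mast cell markers, a set that leaves out Cpa3 and Kit, lie at or near 0. The genes of the IgE receptor and its signal path lie mostly above 1 TPM.

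Of 13 transcription factors of the branch, 9 were at 1 TPM or more in both libraries and 3 at 10 TPM or more. Over all protein-coding genes these shares were 40.8% and 14.3%. Gata2, a factor on which basophil and mast cell development depends, stood at 1.25 and 0.73 TPM on 533 and 241 counts, Gata1 at 0.71 and 0.99 TPM on 176 and 66 counts, and Mitf, a mast cell factor, at 1.43 and 1.73 TPM. Irf8, the monocyte factor, stood at 38.5 and 40.2 TPM and Cebpa, the granulocyte factor, at 8.80 and 7.35 TPM. By scaled counts 11 of the 13 factors were lower in replicate 2, with a median log2 ratio of -0.33. Over 12190 protein-coding genes that median was 0.003. The share of all protein-coding genes lower in replicate 2 was not counted. These ratios were not corrected for base composition, and nothing is read from so few genes. Gata2 was at -1.02 and Gata1 at -1.27, beside 14.4% of 12190 protein-coding genes beyond 1 in either direction. For Gata1 the TPM went the other way.

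Since GATA factors act on this branch, the 250 bases before the RefSeq start of each gene (GRCm38.p6) were searched on both strands for AGATAA or its variant AGATAG, and for TGATAA or its variant TGATAG. The letters were present upstream of 7 of the 8 genes with a RefSeq window, in 8 of 9 windows, since Il1rl1 has 2 starts. Tpsb2 had none to search. Among all 32851 windows of that length 26.5% held a match and 6.40% held 2 or more. Windows are printed for the highest protease gene, both basophil proteases, the β chain and the distal start of Il1rl1, with matches in capitals on the gene's strand.
Cpa3, chr3:20242182-20242431, minus strand: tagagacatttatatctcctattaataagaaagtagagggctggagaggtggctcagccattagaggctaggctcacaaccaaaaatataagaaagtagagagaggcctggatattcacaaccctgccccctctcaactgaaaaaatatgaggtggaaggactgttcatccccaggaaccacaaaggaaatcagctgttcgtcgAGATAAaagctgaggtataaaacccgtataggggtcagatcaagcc
Prss34, chr17:25298144-25298393, plus strand: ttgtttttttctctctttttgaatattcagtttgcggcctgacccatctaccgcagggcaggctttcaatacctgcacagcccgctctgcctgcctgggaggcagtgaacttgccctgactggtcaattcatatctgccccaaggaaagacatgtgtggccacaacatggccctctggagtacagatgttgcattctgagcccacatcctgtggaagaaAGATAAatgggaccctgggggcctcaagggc
Mcpt8, chr14:56085274-56085447, minus strand: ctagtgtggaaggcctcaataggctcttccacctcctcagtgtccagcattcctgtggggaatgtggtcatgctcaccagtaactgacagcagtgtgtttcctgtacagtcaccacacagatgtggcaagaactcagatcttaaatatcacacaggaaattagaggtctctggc
Ms4a2, chr19:11623720-11623969, minus strand: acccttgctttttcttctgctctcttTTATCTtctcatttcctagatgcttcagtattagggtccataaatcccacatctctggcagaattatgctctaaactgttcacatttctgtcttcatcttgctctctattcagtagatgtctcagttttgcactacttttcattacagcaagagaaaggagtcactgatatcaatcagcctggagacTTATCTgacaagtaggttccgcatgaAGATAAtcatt
Il1rl1, chr1:40429320-40429569, plus strand: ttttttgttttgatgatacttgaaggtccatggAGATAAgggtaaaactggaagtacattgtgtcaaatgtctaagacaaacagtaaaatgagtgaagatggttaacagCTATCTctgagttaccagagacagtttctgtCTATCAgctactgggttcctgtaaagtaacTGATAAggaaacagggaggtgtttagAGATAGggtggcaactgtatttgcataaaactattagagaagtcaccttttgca
Cpa3 holds AGATAA 46 bases before its start and Prss34 holds it 31 bases before. Ms4a2 has 3 matches, the nearest 11 bases before the start, and the distal window of Il1rl1 has 5. Mcpt8 has none in its window, of which the 174 bases outside the GENCODE gene are printed. Cma1, which had 4 and 0 counts, has 1 match, so a match was found before genes at both ends of the order. A match describes the letters in the window and not binding.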

How the data were processed

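Total RNA-seq of 2 libraries of 1 group was used. Per the deposited metadata the assembly is mm10 and the annotation GENCODE M4. Aligner, quantifier and strand setting are not named in the labels or headers used here. Per the file headers, the authors deposited an expected count, TPM, FPKM, lengths, posterior mean values with credibility bounds and, per transcript, its percent of the gene. Replicates were not pooled. Symbols and positions came from GENCODE M21, which matched 42462 of 43346 genes (884 unmatched); promoter windows came from RefSeq. Counts and plots of neighbouring genes leave out 1 gene, which is not reported here.

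Expected counts were rounded, scaled by edgeR 4.0.16 in R 4.3.3 (factors 0.985 and 1.02) and compared with a prior count of 2 for log2 ratios. Intervals of ratios are exact conditional binomial at 95%. Sequences were aligned with Biopython 1.88. No gene-wise test is possible with 1 group. The ratio script was tested on simulated data. The design asked for a median ratio over all 9 genes, but Tpsb2 has no count, so 8 entered. Alternatives were another pseudocount, FPKM, rescaled TPM, means, filters, DESeq2 1.42.0 size factors and each library left out. A correction for base composition was added after seeing the data. The genes and lists were chosen with earlier results of these data known. All 9 genes and the listed examples are named. No genes were ranked by likeness to the 9, since 2 libraries hold no pattern.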

Additional observations from a re-analysis of the deposited data

How the results depend on the processing

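The median level of the 9 genes, 2.56 on log2(TPM + 1) as a mean of both libraries, was 2.32 with a pseudocount of 0.1, 3.84 on FPKM, 4.61 on rescaled TPM, 2.24 as a mean and 3.05 without the genes below 0.1 TPM; single libraries gave 2.40 to 2.72. The basophil over mast cell protease difference of 2.93 was 6.06 with a pseudocount of 0.1, 4.24 on FPKM and 5.03 on rescaled TPM, and 2.65 to 3.22 in single libraries. The difference from the eosinophil granule genes of 1.32 was 1.79 with a pseudocount of 0.1, 1.61 on FPKM, 1.72 on rescaled TPM, 0.55 as a difference of means and 1.81 without the low genes, and 1.17 to 1.47 in single libraries. The scales differ by construction, and none of these differences changed sign. The count of genes at 1 TPM or more, 5, was 5 to 6 in single libraries and 7 on FPKM or rescaled TPM. Of the values of single genes, 4 moved by more than their counting interval, 3 of them (Cpa3, Ms4a2 and Hdc) with the correction for base composition, under which the log2 ratio of Hdc turned from -0.07 to 0.03. No paired analysis was possible because there is 1 group. Counts below 10 (Cma1, Tpsb2) support no ratio.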

Other observations

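Cytokines and chemokines listed for this branch were mostly at or near 0. The list also holds Il33 and Kitl, ligands of ST2 and Kit, both without a count. Il4, Il3 and Il5 had 0 counts in both libraries and Il13 had 1 and 0. Of 11 genes listed, 3 were at 1 TPM or more in both libraries, beside 40.8% of protein-coding genes. All 3 are also made by other myeloid cells. Ccl3, a chemokine for monocytes and granulocytes, stood at 17.0 and 18.5 TPM, the related Ccl4 at 5.30 and 3.57 TPM, and Tnf at 2.99 and 3.08 TPM. Il6 had 57 counts in replicate 1 and 5 in replicate 2, a difference between libraries with no replicate check.

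Of 12 surface markers 3 were at 1 TPM or more in both libraries, beside 40.8% of protein-coding genes. Cd63, a granule membrane protein of many cells, stood at 37.3 and 34.8 TPM and Siglecf, an eosinophil lectin, at 3.86 and 5.13 TPM. Cd200r3, a receptor of basophils and mast cells, was at 0.31 and 0.45 TPM on 46 and 41 counts. The mast cell receptors Mrgprb1 and Mrgprb2 and the basophil activation marker Enpp3 had 0 counts in both libraries. Itgb7, the β7 integrin of mast cell progenitors, was at 0.86 and 2.31 TPM.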
